A study of Caenorhabditis briggsae with 9 samples.

Results

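C-type lectin genes of the nematode Caenorhabditis briggsae were followed in whole L3 larvae of 3 strains. A gene was taken as a member if its symbol in the reference gene table begins with Cbr-clec- and if it had 10 or more counts in at least 3 libraries. Of 22922 gene rows, 65 carried such a symbol and 36 of these met the count minimum. The strains were gu163, which carries allele gu163 of Cbr-spr-4 (also named Cbr-ivp-1), gu167, which carries allele gu167 of Cbr-htz-1 (also named Cbr-ivp-2), and AF16, the wild-type isolate. Each strain had 3 libraries, which the labels call independent biological replicates. All animals were grown at 20 degrees, synchronized by bleaching, and harvested as L3 larvae ahead of the divisions of the vulval precursor cells. Ribosomal RNA was removed before sequencing. The sources used here do not state what either allele does to its gene, and each genotype is represented by 1 strain.

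C-type lectin domains are small folds held together by disulphide bonds, and in vertebrates many of them bind sugars with the help of calcium. Nematodes carry a large family of genes with this domain. In C. elegans many of the proteins are predicted to be secreted, a number of the genes are transcribed in the intestine, and the transcripts of several change when the animals meet pathogenic bacteria. The role of most members has not been assigned in either species, and a role is given here only where it is known from C. elegans.

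Libraries held 8294524 to 14095189 counts, and levels are given as CPM, counts scaled to library size with TMM factors. Depending on the library, 3 counts amount to 0.189 to 0.391 CPM. On the first principal component of all genes (40.9% of the variance) the gu163 libraries lay between -67.8 and -45.6. Those of gu167 and AF16 lay together between 23.1 and 32.8. On the second component (26.6%) AF16 replicate 3 stood apart (66.3), as did gu167 replicate 3 (-45.8), with the other 7 libraries between -28.4 and 21.5. These 2 libraries had the lowest and the highest TMM factor, 0.746 and 1.20. Over the levels of the 36 members, the nearest library by correlation was of the same strain in 9 of 9 cases (r from 0.961 to 0.981), as a description. The mutated genes gave 251, 207 and 249 CPM of Cbr-spr-4 in gu163 against 88.0, 118 and 120.0 CPM in AF16, and 61.0, 62.8 and 57.5 CPM of Cbr-htz-1 in gu167 against 60.6, 59.9 and 78.7 CPM in AF16.

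In gu163 larvae 9 of the 36 C-type lectin genes rose against AF16 and 1 fell. A gene was called changed at an adjusted p under 0.05 by edgeR's quasi-likelihood test over all 12507 genes tested. Over all genes 6.36% rose and 2.94% fell in gu163, so that 9.30% were called, against 27.8% of the members. The median log2 fold change was 0.21 over the members and -0.01 over all genes. All 36 members passed the edgeR filter on low counts. However, 3 of them (Cbr-clec-147, Cbr-clec-78 and Cbr-clec-141) reached 10 counts in no AF16 library, so that they could be members only through the mutants. The other 33 reached 10 counts in at least 1 AF16 library, and 6 of these rose. The share over all genes that meet this condition was not counted. The 27.8% includes Cbr-clec-147, Cbr-clec-78 and Cbr-clec-141.

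**Figure D1:**
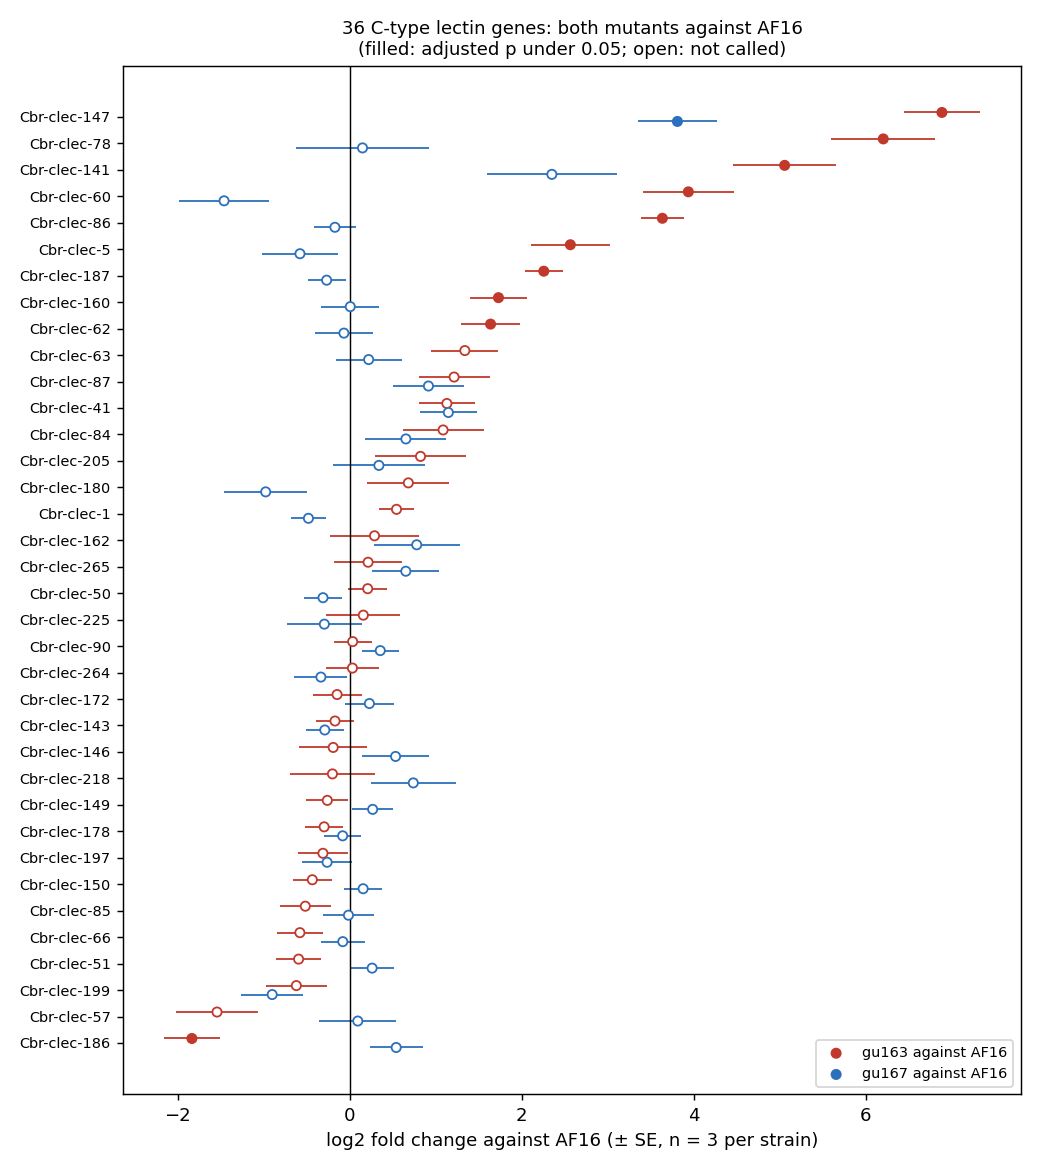
Log2 fold changes (± SE) of the 36 C-type lectin genes in gu163 (red) and gu167 (blue) against AF16, ordered by the change in gu163; filled points were called at an adjusted p under 0.05. In gu163, 9 genes were called higher and 1 lower, whereas in gu167 only Cbr-clec-147 was called; both sets of changes use the same 3 AF16 libraries.

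The 3 members near silence in AF16 had the largest rises. Cbr-clec-147 (CBG20873) was at 50.4, 53.6 and 31.7 CPM in gu163, at 7.43, 5.04 and 3.52 CPM in gu167, and at 0.403, 0.521 and 0.126 CPM in AF16. The strains formed 3 separate steps with no overlap, gu163 highest, gu167 between and AF16 near the level of 3 counts. The log2 fold change was 6.89 ± 0.44 in gu163 (SE, n = 3 per strain, edgeR adjusted p = 1.3e-05) and 3.81 ± 0.46 in gu167 (edgeR adjusted p = 0.00135). In the direct test Cbr-clec-147 was 8.43-fold lower in gu167 than in gu163 (log2 fold change -3.08 ± 0.32, edgeR adjusted p = 0.000656). It was the only member called in gu167 against AF16.

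Cbr-clec-78 (CBG05359) was at 86.1, 28.3 and 25.6 CPM in gu163, at 0.501, 0.756 and 0.804 CPM in gu167, and at 0.302, 0.608 and 1.01 CPM in AF16. Every gu163 library was far above the rest, gu163 replicate 1 most of all, while gu167 and AF16 overlapped. The rise in gu163 was 6.21 ± 0.60 on the log2 scale (edgeR adjusted p = 0.000194), and the gene was 66.5-fold lower in gu167 than in gu163 (-6.06 ± 0.58, edgeR adjusted p = 0.000449). Without gu163 replicate 1 these changes were 5.43 and -5.29 on the log2 scale (edgeR adjusted p = 5.85e-05 and 7.91e-05). Cbr-clec-141 (CBG02388) entered with the fewest counts of any member. It had 16, 37 and 34 counts in gu163, 3, 7 and 5 counts in gu167, and 1, 0 and 1 counts in AF16. Of the members it is the one just inside the count minimum, reached in 3 libraries that were all gu163. The ratio of gu163 to AF16, scaled by library size, was 39.7 (exact 95% interval 10.7 to 333, counting error only; edgeR adjusted p = 0.000719). The ratio of gu167 to AF16 was 5.83 (1.36 to 52.5) and was not called (edgeR adjusted p = 0.173). In the direct test Cbr-clec-141 was 6.53-fold lower in gu167 than in gu163 (log2 fold change -2.71 ± 0.43, edgeR adjusted p = 0.00551).

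Just outside the minimum, Cbr-clec-198, Cbr-clec-89 and Cbr-clec-266 reached 10 counts in 2 libraries, with at most 19, 11 and 13 counts. In all, 29 rows with a Cbr-clec- symbol fell short, of which 22 reached 10 counts in no library, among them 7 with 0 counts in all 9. None of them passed the filter of the test. C. briggsae genes of the family that carry no such symbol in the table were not analysed here.

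Cbr-clec-60, Cbr-clec-86 and Cbr-clec-5 were measurable in AF16 and several-fold higher in gu163. Cbr-clec-60 (CBG03095) was at 271, 174 and 209 CPM in gu163, at 5.76, 6.55 and 2.91 CPM in gu167, and at 3.83, 23.3 and 15.4 CPM in AF16. Its C. elegans counterpart is an intestinal gene induced by infection with Gram-positive bacteria. The gu163 libraries lay together above all others, and AF16 replicate 1 was the lowest AF16 library. The rise in gu163 was 15.3-fold (log2 fold change 3.94 ± 0.53, edgeR adjusted p = 0.00147), and 4.52 on the log2 scale without AF16 replicate 2. Between the mutants it was 42.2-fold lower in gu167 (-5.40 ± 0.57, edgeR adjusted p = 0.00078). The change of Cbr-clec-60 in gu167 against AF16 was -1.46 ± 0.52 on the log2 scale and was not called (edgeR adjusted p = 0.221), but was called without AF16 replicate 1 (-1.92, edgeR adjusted p = 0.0206).

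Cbr-clec-86 (CBG10980) was at 78.2, 88.9 and 77.4 CPM in gu163, at 6.68, 5.61 and 5.12 CPM in gu167, and at 4.03, 8.52 and 7.05 CPM in AF16. It had little spread within gu163, with a coefficient of variation of 7.85%. The rise was 12.4-fold (log2 fold change 3.64 ± 0.25, edgeR adjusted p = 1.65e-05), and gu167 was lower than gu163 (-3.81 ± 0.25, edgeR adjusted p = 2.16e-05). Cbr-clec-5 (CBG10312) was at 178, 233 and 200 CPM in gu163, at 19.4, 25.4 and 24.1 CPM in gu167, and at 11.6, 62.2 and 28.9 CPM in AF16. The gu163 libraries did not overlap with the rest, while AF16 replicates 1 and 2 lay far apart and on both sides of gu167. The rise in gu163 was 5.92-fold (log2 fold change 2.57 ± 0.46, edgeR adjusted p = 0.00718), and the difference of gu167 from gu163 was -3.15 ± 0.47 (edgeR adjusted p = 0.0045). With both AF16 replicate 3 and gu167 replicate 3 left out, the change against AF16 missed the threshold (2.47, edgeR adjusted p = 0.0549). It was 3.34 on the log2 scale without AF16 replicate 2 and 2.15 without AF16 replicate 1.

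Smaller rises were measured for Cbr-clec-187, Cbr-clec-160 and Cbr-clec-62. Cbr-clec-160 (CBG16647) was at 9.63, 8.95 and 8.70 CPM in gu163, at 4.26, 1.89 and 2.11 CPM in gu167, and at 2.22, 2.52 and 3.52 CPM in AF16. The gu163 libraries were all higher than the other 6, and the rise was 3.32-fold (log2 fold change 1.73 ± 0.33, edgeR adjusted p = 0.00924). Its difference of gu167 from gu163 was -1.72 ± 0.32 (edgeR adjusted p = 0.00924). Cbr-clec-62 (CBG04275) was at 95.05, 127 and 68.5 CPM in gu163, at 42.7, 30.9 and 15.3 CPM in gu167, and at 25.4, 30.5 and 37.5 CPM in AF16. It rose 3.11-fold in gu163 (log2 fold change 1.64 ± 0.34, edgeR adjusted p = 0.0151), a call lost without gu163 replicate 2, AF16 replicate 1 or AF16 replicate 2 (edgeR adjusted p up to 0.054). It was 3.26-fold lower in gu167 than in gu163 (-1.71 ± 0.34, edgeR adjusted p = 0.0121).

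**Figure D2:**
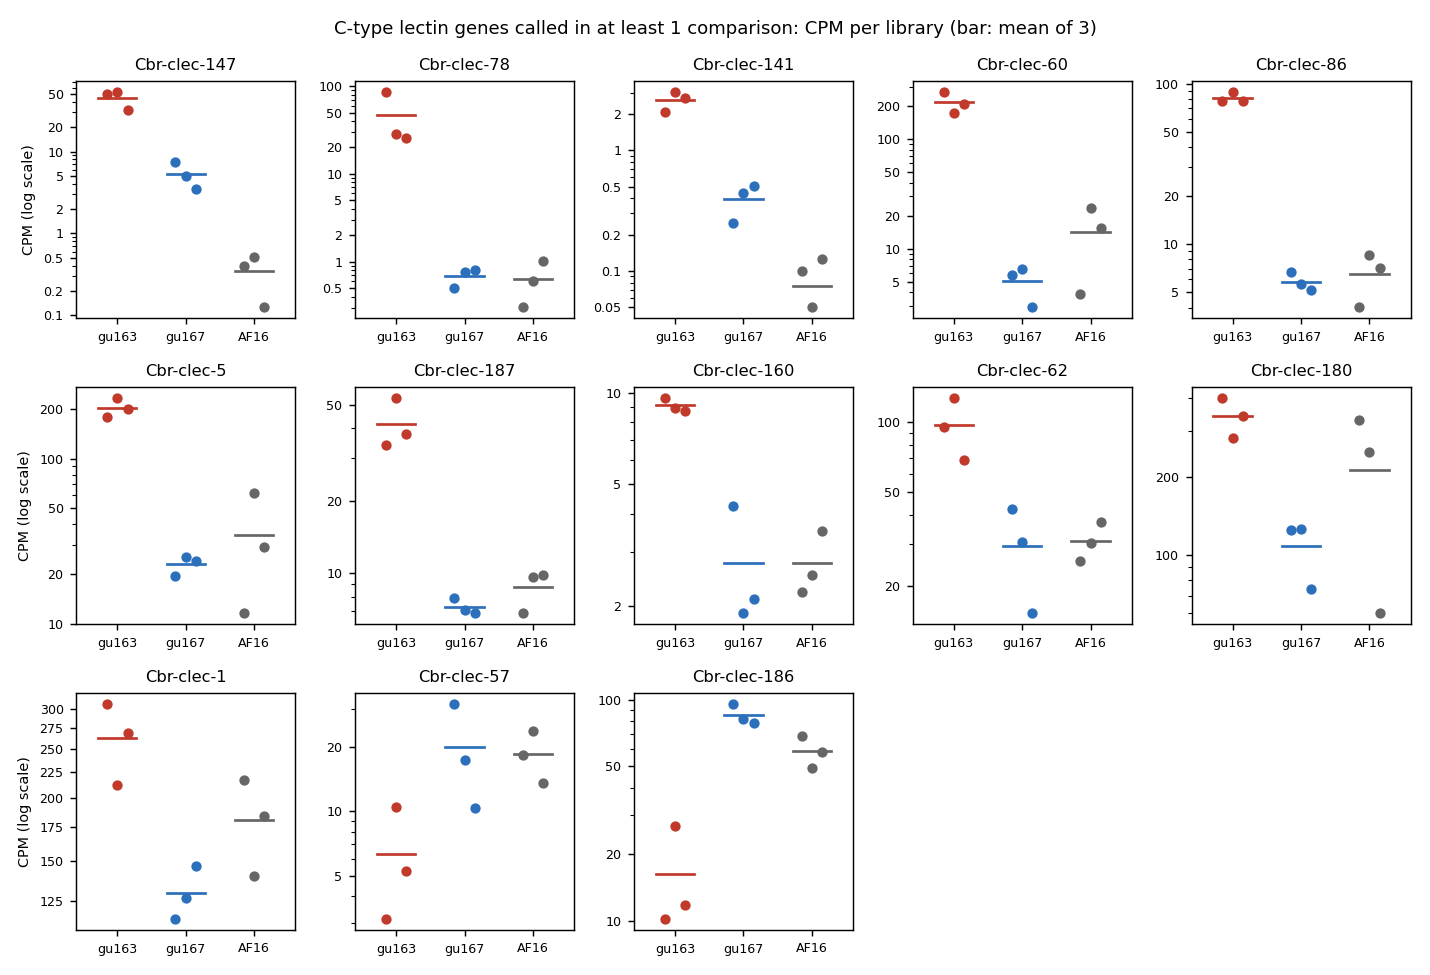
CPM (log axis, a separate range per gene) in each of the 9 libraries for the 13 C-type lectin genes called in at least 1 comparison, with bars at the mean of 3 libraries; the AF16 library with 0 counts of Cbr-clec-141 is drawn at 0.05 CPM. For the first 9 genes the gu163 points lie above all gu167 and AF16 points.

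Against gu163, gu167 was lower for 11 members and higher for 2 in the direct test, where 8.33% of all genes were lower and 5.13% higher. This comparison uses the same 3 gu163 libraries as that of gu163 against AF16, so that the calls of the 2 comparisons are not independent. Of the 9 members that rose in gu163, all but Cbr-clec-147 were not called in gu167 against AF16 (edgeR adjusted p from 0.173 to 0.995). In gu167 against AF16 1 of 36 members rose and 0 fell, beside 1.97% and 0.128% of all genes (2.09% either way). At an unadjusted p under 0.05 there were 3 higher and 3 lower members in edgeR, beside 8.12% and 6.87% of all genes. DESeq2 called 2 higher (Cbr-clec-147 and Cbr-clec-41) and 0 lower, beside 3.29% and 1.80% of all genes.

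Cbr-clec-1 and Cbr-clec-180 were lower in gu167 than in gu163 and were not called in either mutant against AF16. Cbr-clec-1 (CBG09340) was at 115, 126 and 146.8 CPM in gu167 and at 308, 213 and 269 CPM in gu163, a 2.03-fold difference without overlap (log2 fold change -1.02 ± 0.21, edgeR adjusted p = 0.0119). AF16, at 217, 140.0 and 184 CPM, overlapped with both mutants. The changes of Cbr-clec-1 against AF16, 0.54 ± 0.20 in gu163 and -0.48 ± 0.20 in gu167, were not called (edgeR adjusted p = 0.135 and 0.305). The call of Cbr-clec-1 was lost without gu167 replicate 2 (edgeR adjusted p = 0.0513). Cbr-clec-180 (CBG05914) was at 124, 126 and 74.0 CPM in gu167, at 402, 283 and 340 CPM in gu163, and at 329, 249 and 59.9 CPM in AF16. Its difference between the mutants (log2 fold change -1.66 ± 0.49, edgeR adjusted p = 0.0493) did not survive any of the 6 fits that each left out 1 library (edgeR adjusted p up to 0.165). It was called with AF16 replicate 3 and gu167 replicate 3 both left out (-1.45, edgeR adjusted p = 0.00643). In AF16 it was split, with replicate 3 at 0.207 of the mean of the other 2 libraries.

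Fewer members went the other way. Cbr-clec-186 (CBG24375) was at 10.2, 26.9 and 11.8 CPM in gu163, at 95.8, 81.6 and 78.0 CPM in gu167, and at 68.7, 48.9 and 58.0 CPM in AF16. All gu163 libraries were lower than all others, and gu163 replicate 2 was the nearest to them. In gu163 it fell by 1.83 on the log2 scale (SE 0.32, edgeR adjusted p = 0.00643), and it was 5.19-fold higher in gu167 than in gu163 (edgeR adjusted p = 0.00298). Cbr-clec-57 (CBG04604) was at 31.9, 17.4 and 10.3 CPM in gu167, at 3.12, 10.5 and 5.24 CPM in gu163, and at 18.4, 23.8 and 13.6 CPM in AF16. It was called higher in gu167 than in gu163 (log2 fold change 1.64 ± 0.47, edgeR adjusted p = 0.0465), although the lowest gu167 library and the highest gu163 library overlapped. Of 6 fits that each left out 1 library, 4 lost this call (without gu163 replicate 1 or 3, or gu167 replicate 1 or 2, edgeR adjusted p up to 0.163). The difference was 2.22 without gu163 replicate 2. Against AF16 the change of Cbr-clec-57 in gu163 was -1.54 ± 0.48 and was not called by edgeR (adjusted p = 0.0737), whereas DESeq2 called it lower (-1.55, adjusted p = 0.0151).

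**Figure D3:**
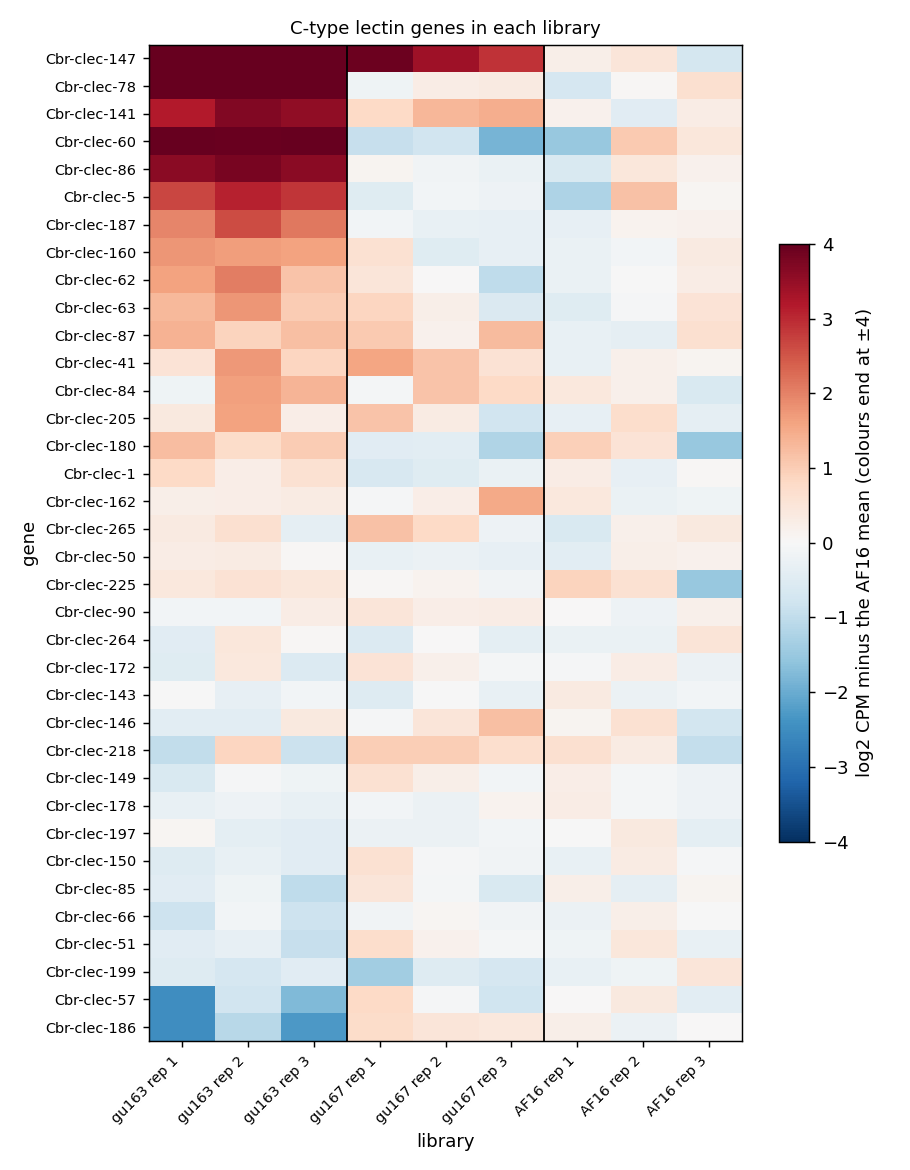
Log2 CPM of each C-type lectin gene in each library minus its AF16 mean, with genes ordered by their change in gu163 and colours ending at ±4. The upper rows are red in all 3 gu163 libraries, the lowest row (Cbr-clec-186) is blue there, and AF16 replicate 3 is blue for Cbr-clec-180 and Cbr-clec-225.

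In the gene order of the reference table, 6 pairs of members were direct neighbours or had at most 2 genes between them. The direct neighbours Cbr-clec-186 and Cbr-clec-187 were both called in gu163, in opposite directions. Cbr-clec-187 (CBG24376) was at 34.1, 53.6 and 37.9 CPM in gu163, at 7.93, 7.05 and 6.83 CPM in gu167, and at 6.85, 9.64 and 9.82 CPM in AF16. It rose 4.78-fold in gu163 (log2 fold change 2.26 ± 0.22, edgeR adjusted p = 0.000194), and gu167 differed from gu163 by -2.52 ± 0.22 (edgeR adjusted p = 0.000241). Within each library the log2 ratio of Cbr-clec-186 to Cbr-clec-187 counts averaged -1.47 ± 0.42 in gu163 and 2.74 ± 0.51 in AF16 (SD, n = 3, exact two-sided permutation p = 0.1, Benjamini-Hochberg adjusted 0.4 over 12 such tests). It averaged 3.54 ± 0.04 in gu167 (exact two-sided permutation p = 0.1 against AF16, adjusted 0.4). With 3 libraries against 3, 0.1 is the smallest p that the exact permutation test can give.

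Cbr-clec-62 and its direct neighbour Cbr-clec-63 differed less in their ratio. The log2 ratio of Cbr-clec-63 to Cbr-clec-62 was 4.28 ± 0.10 in gu163, 4.87 ± 0.12 in gu167 and 4.52 ± 0.23 in AF16 (SD, n = 3 each, exact two-sided permutation p = 0.2 for either mutant against AF16). Cbr-clec-63 (CBG04274) was at 1752, 2416 and 1438 CPM in gu163, at 1279, 825 and 477 CPM in gu167, and at 502, 690 and 1024 CPM in AF16. All gu163 libraries were above all others, but its change of 1.34 ± 0.39 missed the threshold (edgeR adjusted p = 0.0604). DESeq2 called it (1.33, adjusted p = 0.00771), as did edgeR with upper-quartile scaling (adjusted p = 0.0487) or with no filter on low counts (adjusted p = 0.0464). With the TMM factors and the filter, edgeR called it without AF16 replicate 3 (1.66, edgeR adjusted p = 0.0407), and with both AF16 replicate 3 and gu167 replicate 3 left out (edgeR adjusted p = 0.0160). Between the mutants its difference was -1.12 ± 0.39 and was not called by edgeR (adjusted p = 0.0849), but was by DESeq2 (adjusted p = 0.0261). Of the remaining neighbours, Cbr-clec-225 and Cbr-clec-41 adjoin each other, and Cbr-clec-66 with Cbr-clec-63, Cbr-clec-84 with Cbr-clec-172, and Cbr-clec-197 with Cbr-clec-199 have 2 genes between them. In none of these pairs were both genes called in a comparison. The log2 ratio of Cbr-clec-66 to Cbr-clec-63 was -8.77 ± 0.14 in gu163 and -6.79 ± 0.47 in AF16 (SD, exact two-sided permutation p = 0.1, adjusted 0.4). In gu167 that ratio was -7.03 ± 0.725 (exact two-sided permutation p = 0.7 against AF16).

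**Figure D4:**
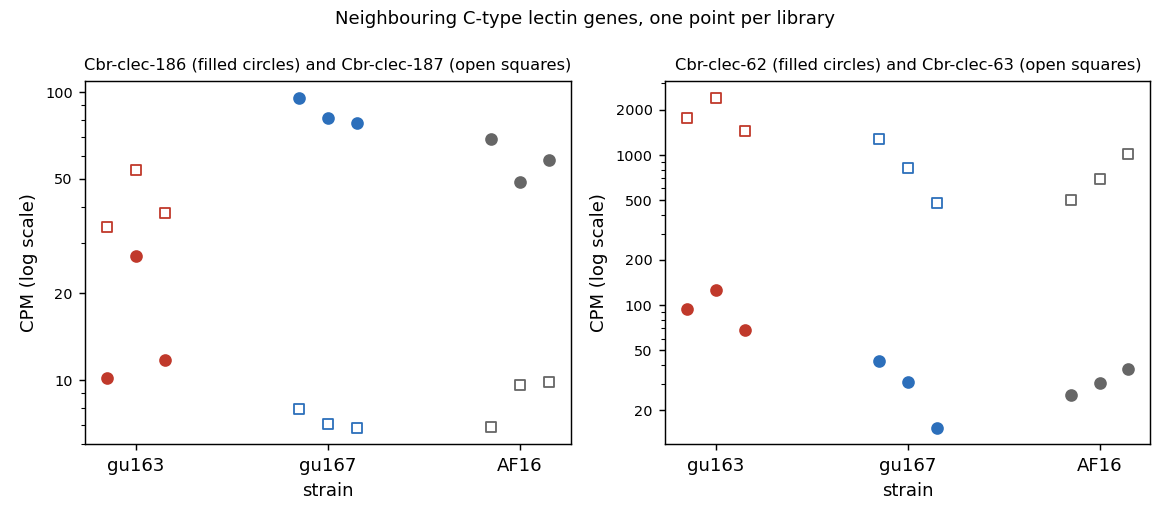
CPM (log axis) of 2 pairs of neighbouring C-type lectin genes, 1 point per library. Cbr-clec-186 (circles) lies below Cbr-clec-187 (squares) in gu163 and above it in gu167 and AF16, whereas Cbr-clec-63 lies above Cbr-clec-62 in all 9 libraries.

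The reads of the family came mostly from a few members. Cbr-clec-50 (CBG17839) took 29.1% to 31.9% of all member counts in gu163, 31.1% to 44.8% in gu167 and 37.9% to 47.2% in AF16. Cbr-clec-63 took 30.9% to 38.9% in gu163, 18.9% to 34.5% in gu167 and 17.7% to 29.2% in AF16. These are shares of reads and not corrected for transcript length. The 36 members summed to 5471, 6208 and 4662 CPM in gu163, to 3714, 3133 and 2526 CPM in gu167, and to 2831, 3550 and 3505 CPM in AF16. The gu163 sums were all above those of gu167 and AF16, which overlapped with each other. The mean sum was 1.65 times that of AF16 in gu163 and 0.948 times in gu167, without Cbr-clec-63 the ratios were 1.40 and 0.885, without Cbr-clec-50 they were 2.04 and 1.06, and without both they were 1.72 and 0.989. Cbr-clec-50 itself was at 1743, 1805 and 1483 CPM in gu163, at 1156, 1220.0 and 1133 CPM in gu167, and at 1074, 1677 and 1602 CPM in AF16, and was not called in any comparison. Its difference of gu167 from gu163 was -0.52 ± 0.23 (edgeR adjusted p = 0.163).

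**Figure D5:**
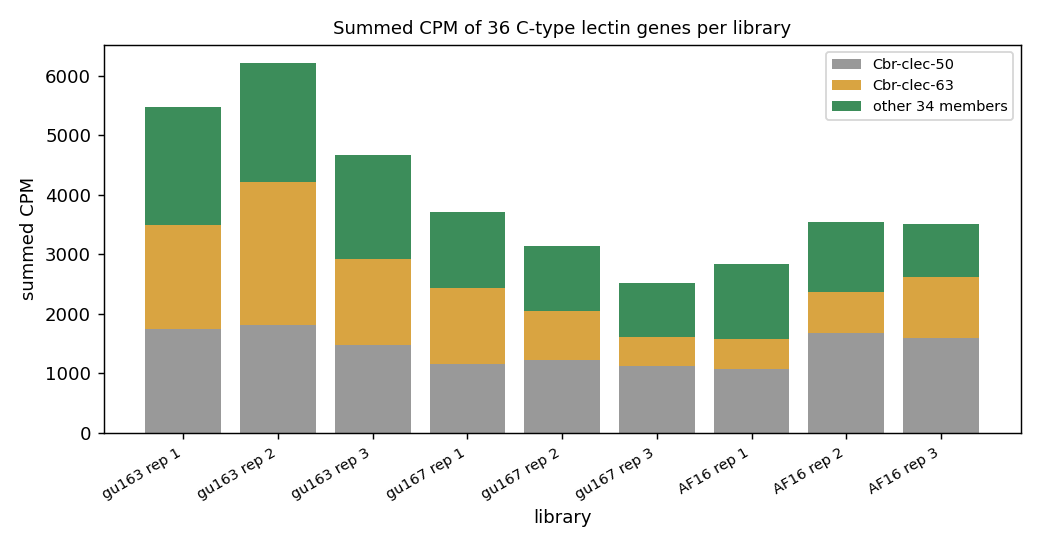
Summed CPM of the 36 C-type lectin genes in each library, split into Cbr-clec-50, Cbr-clec-63 and the other 34 members. The gu163 sums run between 4662 and 6208 CPM, those of gu167 between 2526 and 3714 CPM and those of AF16 between 2831 and 3550 CPM.

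In all, 23 of the 36 members were called in no comparison. Among them Cbr-clec-41 (CBG09432) was at 84.8, 194 and 106 CPM in gu163, at 175, 128 and 86.4 CPM in gu167, and at 47.1, 66.3 and 62.4 CPM in AF16. Each mutant library was above each AF16 library, with changes of 1.13 ± 0.33 in gu163 and 1.15 ± 0.33 in gu167 that were not called by edgeR (adjusted p = 0.061 and 0.129) and were called by DESeq2 (adjusted p = 0.0167 and 0.0315). Cbr-clec-87 was likewise higher in every gu163 library (3.91, 2.73 and 3.46 CPM, against 1.11, 1.04 and 2.27 CPM in AF16), with a change of 1.21 ± 0.41 that was not called (edgeR adjusted p = 0.103). Its gu167 libraries, at 3.09, 1.575 and 3.62 CPM, overlapped with both gu163 and AF16. Cbr-clec-85 (CBG01162), whose C. elegans counterpart depends on the p38 MAP kinase PMK-1, was at 106, 129 and 71.8 CPM in gu163, at 204, 136 and 95.2 CPM in gu167, and at 170.3, 114 and 155 CPM in AF16. Its libraries overlapped between all strains. Cbr-clec-51 was at 49.1, 53.9 and 35.3 CPM in gu163, 109, 76.4 and 64.2 CPM in gu167, and 59.9, 93.5 and 55.0 CPM in AF16, with every gu163 library below every other and no call by edgeR (-0.59 ± 0.26 for gu163 against AF16, adjusted p = 0.202, and 0.85 ± 0.26 for gu167 against gu163, adjusted p = 0.0567). DESeq2 called the difference between the mutants (adjusted p = 0.0264).

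The remaining members not called spanned low to middle levels. Cbr-clec-162 and Cbr-clec-199 had medians over the 9 libraries of 1.07 and 1.70 CPM, and Cbr-clec-197 of 2.67 CPM. Cbr-clec-66, Cbr-clec-90, Cbr-clec-178, Cbr-clec-205, Cbr-clec-264 and Cbr-clec-84 had medians between 5.16 and 7.96 CPM. Cbr-clec-149, Cbr-clec-143, Cbr-clec-265 and Cbr-clec-172 had medians between 9.91 and 16.7 CPM. Cbr-clec-146, Cbr-clec-150, Cbr-clec-225 and Cbr-clec-218 had medians between 35.8 and 51.6 CPM. Among these, an unadjusted p under 0.05 was reached by Cbr-clec-84 in gu163 against AF16 (1.09 ± 0.47, edgeR adjusted p = 0.196), by Cbr-clec-199 in gu167 against AF16 (-0.90 ± 0.36, edgeR adjusted p = 0.27) and by Cbr-clec-150 in gu167 against gu163 (0.59 ± 0.23, edgeR adjusted p = 0.115).

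Several members spread widely within a strain. Cbr-clec-225 was at 71.3 and 59.3 CPM in AF16 replicates 1 and 2 and at 13.5 CPM in AF16 replicate 3, while the 3 gu163 libraries lay between 51.4 and 57.4 CPM. Cbr-clec-218 was at 61.0 CPM in gu163 replicate 2 and at 16.8 and 18.4 CPM in the other gu163 libraries. The median coefficient of variation over the 36 members was 22.8% in gu163, 27.6% in gu167 and 30.9% in AF16. With all libraries Cbr-clec-180 and Cbr-clec-225 overlapped between gu167 and AF16 and were not called. Their log2 fold changes were -0.98 ± 0.48 and -0.30 ± 0.43 (edgeR adjusted p = 0.373 and 0.765). AF16 replicate 3 was the lowest AF16 library for both. Without it they were called lower in gu167 than in AF16 (log2 fold change -1.42 and -0.74, edgeR adjusted p = 0.0182 and 0.0239). Cbr-clec-87 was then called higher in gu163 (1.64, edgeR adjusted p = 0.0439).

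Other genes of innate defence were counted in the same fit, in which 6.36% of all genes rose and 2.94% fell in gu163. Of 8 tested lysozyme genes 3 rose in gu163 and 0 fell, with Cbr-lys-6.1 (1.33 ± 0.28, edgeR adjusted p = 0.0161) and Cbr-lys-6.2 (0.78 ± 0.20, edgeR adjusted p = 0.036) first by adjusted p. Of 14 matched antimicrobial peptide and thaumatin genes 8 were tested, of which 4 rose and 0 fell. Of these 4, Cbr-abf-6 reached 10 counts only in gu163 libraries. The caenacin genes Cbr-cnc-3 (1.69 ± 0.28, edgeR adjusted p = 0.00478) and Cbr-cnc-2 (1.87 ± 0.32, edgeR adjusted p = 0.00589), members of a peptide family that C. elegans induces in its epidermis, had the smallest adjusted p. Cbr-cnc-3 was at 20.2, 11.7 and 18.5 CPM in gu163, at 2.67, 3.21 and 3.92 CPM in gu167, and at 6.45, 5.30 and 3.78 CPM in AF16, so that the gu163 libraries were all highest. Of 12 galectin genes, which encode another family of sugar-binding proteins, Cbr-lec-8 (1.33 ± 0.24, edgeR adjusted p = 0.00735) and Cbr-lec-6 (1.002 ± 0.19, edgeR adjusted p = 0.0104) rose and 0 fell. Cbr-lec-2, Cbr-lec-3 and Cbr-lec-10 were lower at an unadjusted p under 0.05 in edgeR but not called (log2 fold change -0.71, -0.74 and -0.75).

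Of 12 saposin-like genes none was called in gu163 (5 at an unadjusted p under 0.05 in edgeR), nor was any of 3 infection response genes (0 at an unadjusted p under 0.05). Of the 5, Cbr-spp-17 was lower and the rest were higher. At that unadjusted cut 13% of all genes were higher and 10.6% lower in gu163. Of 12 genes of the p38 pathway and immune regulators 1 rose in gu163 and the same gene in gu167, namely Cbr-zip-2, the counterpart of a C. elegans transcription factor of the response to Pseudomonas aeruginosa. It was at 106, 92.6 and 91.0 CPM in gu163, at 95.2, 83.5 and 83.6 CPM in gu167, and at 58.9, 44.9 and 47.5 CPM in AF16 (log2 fold change 0.93 ± 0.15 and 0.79 ± 0.15, edgeR adjusted p = 0.00342 and 0.019). No gene of the other 5 defence lists was called in gu167 against AF16 by edgeR. At an unadjusted p under 0.05 there were 3 lysozyme, 3 saposin-like, 1 antimicrobial peptide or thaumatin, 1 galectin and 0 infection response genes. The lysozyme and saposin-like genes went both ways, and the antimicrobial peptide and galectin genes were lower. Of all genes, 8.12% were higher and 6.87% lower in gu167 at that cut. Directly between the mutants, 3 lysozyme, 3 saposin-like, 5 antimicrobial peptide and thaumatin and 2 galectin genes were lower in gu167 than in gu163, and 1 galectin gene was higher. Of all genes, 8.33% were lower and 5.13% higher in that test.

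Markers of cell types were read beside these results, since in whole larvae a change in the number of cells cannot be told apart from a change in RNA per cell. Of 11 tested intestine markers 0 rose and 0 fell in gu163 (3 at an unadjusted p under 0.05 in edgeR), and all 12 matched markers had counts. Of the 3, Cbr-vha-6 (log2 fold change -0.69) and Cbr-eps-8 (-0.66) were lower and Cbr-cpr-6 (0.71) was higher. At that unadjusted cut 13% of all genes were higher and 10.6% lower in gu163. The intestine list summed to 7462 to 9754 CPM in gu163, 6766 to 10820 CPM in gu167 and 7257 to 12950 CPM in AF16. Cbr-elt-2, the gene of the main intestinal GATA factor, was at 18.9, 21.4 and 16.8 CPM in gu163, at 25.9, 19.9 and 18.7 CPM in gu167, and at 16.1, 20.3 and 28.2 CPM in AF16. Between the mutants 1 intestine marker, the cysteine protease gene Cbr-cpr-6, was lower in gu167 than in gu163 (-1.67 ± 0.33, edgeR adjusted p = 0.0109). In that comparison the median log2 fold change over the 11 tested intestine markers was 0.178. Cbr-pept-1 was higher there at an unadjusted p under 0.05 but was not called (0.58 ± 0.25, edgeR adjusted p = 0.151). Of 12 germline and oocyte markers 8 rose in gu163 and 7 in gu167. Over all genes 6.36% rose in gu163 and 1.97% in gu167. Among the markers that rose, Cbr-egg-3 reached 10 counts in no AF16 library. The germline and oocyte list summed to 254 to 307 CPM in gu163, 213 to 249 CPM in gu167 and 139 to 272 CPM in AF16. These sums include Cbr-cgh-1, which was not called and took the largest part of them in AF16. Cbr-cgh-1 was at 141, 108 and 106 CPM in gu163, at 121, 90.45 and 92.0 CPM in gu167, and at 92.5, 111 and 235 CPM in AF16. Of 7 matched sperm markers 4 were tested, of which 4 rose in gu163 and 2 in gu167. Cbr-fer-1 and Cbr-spe-41 reached 10 counts in no AF16 library, so that they could be tested only through the mutants. The sperm list summed to 24.6 to 86.5 CPM in gu163, 10.8 to 14.6 CPM in gu167 and 2.27 to 3.12 CPM in AF16. In gu167 against gu163, 1 germline marker was lower, and 2 sperm markers were lower and 1 higher.

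The epidermis list had no call in either mutant against AF16 (1 of 10 markers in gu163 and 5 in gu167 at an unadjusted p under 0.05 in edgeR). The 1 in gu163 was higher and the 5 in gu167 were all lower. Of all genes, 13% were higher and 10.6% lower in gu163 at that cut, and 8.12% and 6.87% in gu167. The epidermis list summed to 4353 to 11380 CPM in gu163, 1111 to 2199 CPM in gu167 and 3599 to 4863 CPM in AF16. Of its 10 genes, 5 were lower in gu167 than in gu163. Pharynx, body muscle, neuron and yolk lists had 0 calls among 3, 6, 8 and 3 tested markers in each comparison (2, 0, 0 and 0 at an unadjusted p under 0.05 in gu163, and 0, 0, 1 and 2 in gu167, in edgeR). At that cut the pharynx and yolk genes were higher and the neuron gene was lower. The pharynx list summed to 41.2 to 54.7 CPM in gu163, 25.3 to 30.04 CPM in gu167 and 16.8 to 41.2 CPM in AF16. The yolk list, which marks the adult intestine, summed to 20.5 to 35.0 CPM in gu163, 12.8 to 356 CPM in gu167 and 46.8 to 66.7 CPM in AF16, with the highest value in gu167 replicate 3. The part of germline, sperm, epidermis, pharynx or yolk genes in the C-type lectin changes was not tested.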

How the data were processed

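The deposited files hold raw read counts per gene, 1 value per gene and library, per the file contents, with no normalization by the authors. The series table and the 9 library files held the same counts in 9 of 9 libraries. Per the submitters' processing notes, STAR, DESeq, Trim Galore and FastQC were used, with no version or role. The build, annotation, read counter and strandedness were not given in the sources used here, and reads of overlapping genes or near-identical family members cannot be told apart. Symbols came by locus tag from the RefSeq gene table of assembly CB4, which matched 22727 of 22922 identifiers and was used only for names and gene order.

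Gene counts of the 9 libraries entered 1 edgeR 4.0.16 fit (R 4.3.3) with TMM factors, two-sided robust quasi-likelihood F tests and filterByExpr at minimum count 10, which left 12507 genes. P-values were adjusted by Benjamini-Hochberg over all of them and 0.05 was the threshold. A threshold of 0.0005 was among the alternatives. Standard errors came from the F statistic. Total counts per library, 8294524 to 14095189, set the precision of low genes. Ratios of counts within a library used a pseudocount of 0.5. Alternatives used DESeq2 1.42.0 and limma 3.58.1. The steps were tested on simulated counts. Replicate pairs differed by more than sampling noise (chi-square per degree of freedom 18.8 to 86.1), so all 9 were kept. The members and lists were chosen with earlier results of these data known. Log2 fold changes, ratios or folds are given for members called, or at an unadjusted p under 0.05, in that comparison, and CPM values for the others. They are also given for members called only in an alternative fit that the text names. Full values are given for members called in at least 1 comparison and for the 5 with the highest mean CPM. From each defence list the 2 called genes with the smallest adjusted p are named. Cbr-lec-2, Cbr-lec-3, Cbr-lec-10 and Cbr-abf-6 were added after their values were seen. Cbr-clec-41, Cbr-clec-87 and Cbr-clec-51 were given in full, and Cbr-clec-218 and Cbr-clec-225 in part, after their values were seen.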

Additional observations from a re-analysis of the deposited data

How the results depend on the processing

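The 10 calls in gu163 against AF16 kept their direction in every alternative run (RLE and upper-quartile scaling, DESeq2, limma-voom, no filter, 10 counts in 3 libraries, only the strains compared, the replicate block, and leaving out libraries). Members higher and lower in gu163 numbered 9 and 1, with 8 to 11 and 1 to 2 in fits without 1 library. DESeq2 called 11 higher and 2 lower, beside 8.18% and 4.75% of all genes. It added Cbr-clec-63 and Cbr-clec-41 among the higher and Cbr-clec-57 among the lower. In gu167 against AF16, 1 higher became 2 by DESeq2, and 0 lower became 0 to 2 without 1 library and 1 with both AF16 replicate 3 and gu167 replicate 3 left out. Without 1 library the count higher in gu167 stayed at 1. For gu167 against gu163, 11 lower ranged from 9 to 11 and 2 higher from 1 to 3 without 1 library. There DESeq2 called 12 lower and 3 higher, beside 11% and 7.29% of all genes. By limma-voom or with no filter on low counts, 1 was higher. At the stricter threshold of adjusted p under 0.0005, 4 members were higher and 0 lower in gu163, 0 were higher in gu167, and 3 were lower and 0 higher in gu167 than in gu163. The cause of these shifts was not tested beyond the stricter threshold itself. Shares of all genes were counted only for the main fit and DESeq2. The member counts at that threshold and in all other fits have no such share beside them.

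The mean summed CPM was 5447 in gu163, 3124 in gu167 and 3295 in AF16, with ranges without 1 library of 5003 to 5797, 2826 to 3347 and 3195 to 3519, and 3770, 1955 and 1844 without Cbr-clec-50. Deviations from the strain means correlated from -0.29 to 0.249 between same-numbered libraries of different strains. Between differently numbered libraries of different strains they correlated from -0.332 to 0.39. Whether libraries shared a preparation cannot be told from these correlations. With the replicate block the counts were 9 higher and 1 lower in gu163, 1 and 0 in gu167, and 2 higher and 11 lower in gu167 than in gu163. Shares of all genes were not counted for that fit. There Cbr-clec-57 lost its call (adjusted p = 0.0547 by edgeR) and Cbr-clec-51 gained one (0.0391). Among 68 pairs of a member and a comparison that had no unadjusted p under 0.05, the sign changed in 54 of 1019 refits, to at most 0.46 on the log2 scale in size. In 5 of these refits a pair was newly called. Cbr-clec-218 was called higher in gu167 than in gu163 without gu163 replicate 2 (1.81, edgeR adjusted p = 0.0231). The other newly called refits were of Cbr-clec-180 and Cbr-clec-225. Depth limits Cbr-clec-141, with 2 counts in AF16.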
